A study of Mus musculus with 12 samples.

Results

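The 10 genes described here carry out or restrain the peroxidation of membrane lipids: Gpx4, Aifm2, Slc7a11, Slc3a2, Acsl4, Lpcat3, Alox5, Alox12, Alox15 and Por. They are a list of symbols, and all 10 were found among the 37620 genes of the count table. RNA-seq had been carried out on bone endothelial cells (BECs) of c57/Bl6 mice, labelled as freshly taken from the tibia and purified by endomucin, which marks the surface of capillary cells in bone. The 4 groups, each of 3 libraries, were females and males of 2 weeks and of 65 weeks of age. No genotype and no treatment is given in the labels for any group. Nothing in the labels says whether each library came from its own mouse, so p-values measure the spread between these libraries.

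Ferroptosis is a form of cell death that depends on iron and follows the build-up of peroxidised phospholipids. Polyunsaturated fatty acids are activated by Acsl4 and built into phospholipids by Lpcat3, lipoxygenases and Por promote their oxidation, and Gpx4 reduces the resulting lipid peroxides using glutathione. Cystine taken up by the Slc7a11 and Slc3a2 transporter feeds glutathione synthesis, and Aifm2 regenerates reduced coenzyme Q as a defence beside glutathione. The study examined lipid peroxides in ageing BECs, and the counts allow each of these transcripts to be compared between ages and between sexes.

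Total counts per library were 35012947 to 44569600 at 2 weeks and 26044743 to 34088694 at 65 weeks. The purified cells were checked against markers of the labelled type and of other cells of bone, as summed CPM, counts scaled by the library total. The 20 endothelial markers summed to 4101 to 7383 CPM at 2 weeks but to 341 to 480 CPM at 65 weeks, and all 20 were lower at 65 weeks in both sexes. None was at 0. Emcn, the gene of endomucin, was measured at 115 to 227 CPM at 2 weeks and 2.80 to 6.98 CPM at 65 weeks. The 10 megakaryocyte and platelet markers also fell in both sexes, from 1870 to 3054 CPM at 2 weeks to 145 to 388 CPM at 65 weeks, as did all 10 osteoblast markers. The 16 neutrophil markers summed to 5913 to 8275 CPM at 2 weeks and 13683 to 29775 CPM at 65 weeks, with 12 higher and 1 lower in females and 15 higher in males. The 14 monocyte and macrophage markers summed to 6015 to 8982 CPM at 2 weeks and 9849 to 13717 CPM at 65 weeks. Of these, 11 were higher in females, and 8 were higher and 1 lower in males. The largest sum was that of 11 erythroid markers, at 31001 to 58480 CPM at 2 weeks and 31771 to 48906 CPM at 65 weeks. Of these, 4 were higher and 0 lower in each sex. B cell markers summed to 566 to 808 CPM at 2 weeks and 7365 to 19056 CPM at 65 weeks, with Ighm the largest in every library. Of these 12 markers 8 were higher in each sex, while 1 was lower in females and 2 in males. Every age difference below stands beside this change in the marker levels of the libraries. In such bulk libraries fewer cells of a type and less RNA per cell cannot be told apart, and the part of cell composition in the members' differences was not tested.

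Upstream sequences are shown for the members that moved most, Slc7a11, Alox5 and Alox12, and for Slc3a2, the partner of Slc7a11. Each is the 250 bases before the RefSeq transcription start, read 5′ to 3′ on the strand of the gene (build GRCm38.p6, all on the minus strand). They lie at chr3:50443614-50443863, chr19:8713898-8714147, chr6:116461179-116461428 and chr11:70255371-70255620 in the order Slc7a11, Slc3a2, Alox5, Alox12. Capitals mark the amino acid response element TGATGNAA in Slc7a11, on either strand, and the GC box GGGCGG in the other sequences.

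Slc7a11: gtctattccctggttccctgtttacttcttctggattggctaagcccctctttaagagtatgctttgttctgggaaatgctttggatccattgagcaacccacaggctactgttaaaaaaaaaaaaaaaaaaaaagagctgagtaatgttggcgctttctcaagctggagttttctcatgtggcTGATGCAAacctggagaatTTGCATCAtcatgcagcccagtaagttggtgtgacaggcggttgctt
Slc3a2: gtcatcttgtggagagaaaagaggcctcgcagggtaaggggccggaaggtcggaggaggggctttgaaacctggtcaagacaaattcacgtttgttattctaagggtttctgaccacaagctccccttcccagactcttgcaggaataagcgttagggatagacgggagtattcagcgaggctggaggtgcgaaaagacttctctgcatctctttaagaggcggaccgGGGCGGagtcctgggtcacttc
Alox5: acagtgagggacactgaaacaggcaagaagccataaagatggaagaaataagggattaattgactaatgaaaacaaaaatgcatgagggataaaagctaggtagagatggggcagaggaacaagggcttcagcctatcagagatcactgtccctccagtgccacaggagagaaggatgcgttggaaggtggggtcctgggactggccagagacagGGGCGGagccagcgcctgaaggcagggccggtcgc
Alox12: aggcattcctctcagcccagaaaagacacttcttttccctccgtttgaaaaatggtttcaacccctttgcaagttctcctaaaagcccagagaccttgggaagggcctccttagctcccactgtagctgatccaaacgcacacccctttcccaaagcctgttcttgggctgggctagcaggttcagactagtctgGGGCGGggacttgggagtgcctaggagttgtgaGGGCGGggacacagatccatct

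Both strands were searched in 32851 RefSeq promoters of the same length, which included 9 of the 10 members, all but Alox15. The amino acid response element, the kind of site bound by Atf4 when amino acids run short, was in 3.45% of all promoters. Of the members it was found only in that of Slc7a11, at bases -66 to -59 on the gene's strand and at -47 to -40 on the other. The antioxidant response element TGACNNNGC, a site of Nfe2l2, was in 10.2% of all promoters and in that of no member. The GC box was in 32.7% of all promoters and in 9 of the 12 member promoters, which belong to 7 members (Gpx4, Acsl4, Slc3a2, Lpcat3, Alox5, Alox12 and Por). These matches describe letters in a window and no binding was measured.

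All 10 members passed the filter on low counts in every comparison. Genes were tested with edgeR's quasi-likelihood test, with Benjamini-Hochberg adjustment over all genes tested and a threshold of 0.05, and log2 fold changes below are 65 over 2 weeks. In females 7 of 10 members were called, 5 higher (Acsl4, Slc7a11, Slc3a2, Alox5 and Por) and 2 lower (Gpx4 and Alox12), where 59.7% of all 15120 genes tested were called, 30.2% higher and 29.5% lower. In males 6 of 10 were called, the same 5 higher and Alox12 lower, where 55.5% of all 14959 genes were called, 27.0% higher and 28.5% lower. The 65-week and 2-week libraries did not overlap in CPM for 9 of 10 members in each sex, all but Alox15, against 69.2% of all genes in females and 65.4% in males. CPM was scaled by library totals, whereas the tests used the TMM scaling of edgeR. With library totals the median log2 fold change over all genes was -0.13 in females and -0.11 in males. Libraries that are all lower in CPM are thus not by themselves a fall on the scale of the test. The median log2 fold change over the members was 0.15 in females and 0.12 in males, beside 0.01 over all genes in each. Since most genes were called, a call by itself did not set a member apart, and the size and the single libraries are given for each.

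**Figure D1:**
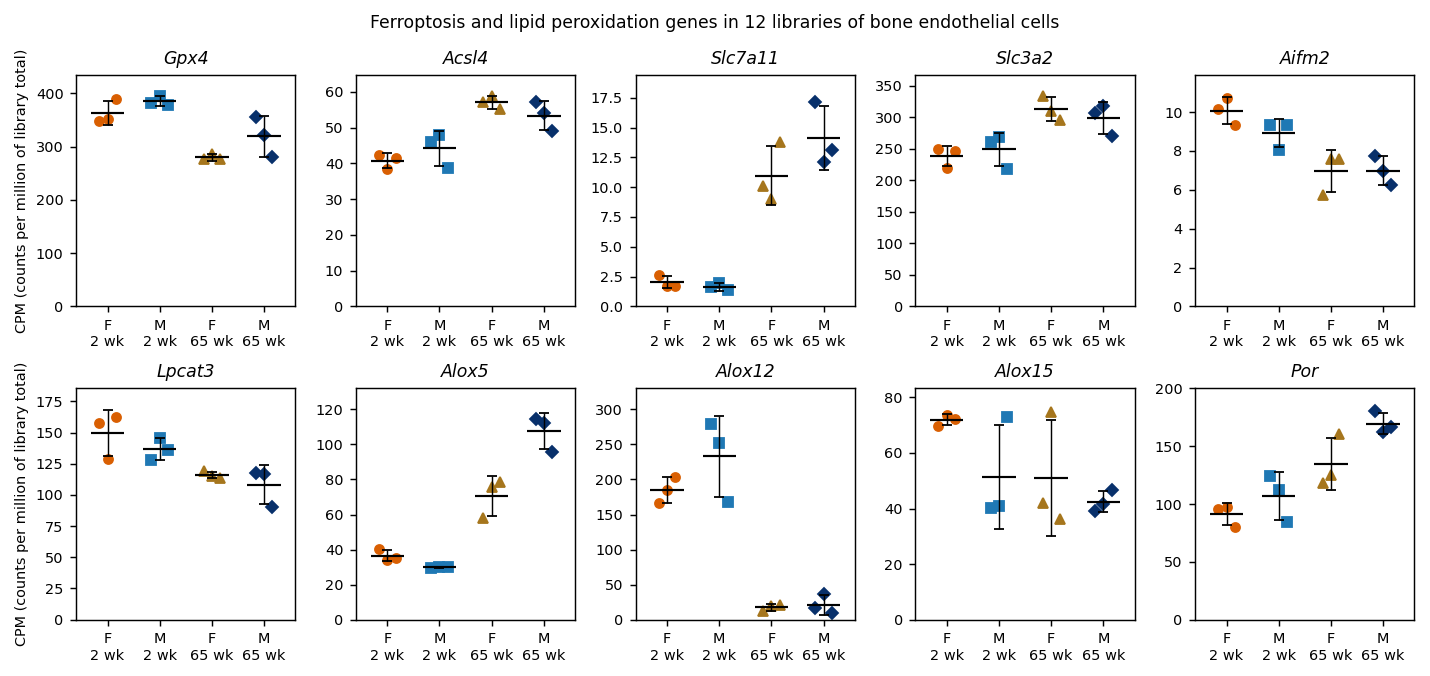
CPM of the 10 members (vertical axes, linear and starting at 0) in each of the 12 libraries, by sex (F, M) and age (2 and 65 weeks). Points are libraries and lines and bars the mean ± SD of 3 libraries. Slc7a11 and Alox5 are higher and Alox12 is lower in every 65-week library, while Alox15 takes 2 levels at either age.

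Slc7a11 encodes the light chain of the cystine and glutamate antiporter, which carries cystine into the cell. It lies on the minus strand of chromosome 3 (49846975 to 50398070, GRCm39 as for all genes below). Its level was 2.64, 1.71 and 1.75 CPM in the females of 2 weeks and 1.59, 1.99 and 1.35 CPM in the males of 2 weeks. At 65 weeks it was 10.1, 9.04 and 13.8 CPM in females and 17.2, 12.1 and 13.1 CPM in males. Every 65-week library was thus above every 2-week library, and this was the largest rise among the members. The log2 fold change was 2.56 ± 0.25 in females (SE, 5.90-fold, edgeR adjusted p = 6.48e-05) and 3.22 ± 0.24 in males (9.31-fold, adjusted p = 2.46e-05). The values rested on 49 to 97 reads per library at 2 weeks and 294 to 469 at 65 weeks.

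Slc3a2 encodes the heavy chain that holds Slc7a11 and several other amino acid transporters in the membrane (chromosome 19, minus strand, 8684245 to 8701108). It was far more abundant, with 249, 220 and 246 CPM in females of 2 weeks and 260, 268 and 218 CPM in males. The 65-week levels were 334, 310 and 296 CPM in females and 306, 319 and 270 CPM in males. The lowest 65-week male library lay just above the highest 2-week male library. Slc3a2 rose by a log2 fold change of 0.53 ± 0.09 in females (1.44-fold, adjusted p = 0.00157) and 0.38 ± 0.13 in males (1.30-fold, adjusted p = 0.0407). The call in males was lost when any 1 of 5 libraries was left out, with adjusted p = 0.0851, 0.0657 and 0.15 without 2-week replicates 1, 2 and 3 and 0.116 and 0.102 without 65-week replicates 1 and 2. Of its merged exons 15.9% lie opposite exons of Snhg1, a non-coding gene, and whether strand was used in counting is not stated.

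Gpx4, the selenoprotein that reduces phospholipid peroxides inside membranes, was the most abundant member (chromosome 10, plus strand, 79883000 to 79892273). Its level was 348, 351 and 389 CPM in 2-week females against 277, 287 and 276 CPM in 65-week females. In males it was 382, 396 and 378 CPM at 2 weeks and 355, 323 and 280 CPM at 65 weeks. All 65-week libraries lay below the 2-week libraries of their sex in CPM by library totals, though by a small margin. The fall of 0.24 ± 0.08 on the log2 scale in females passed the test (0.847-fold, adjusted p = 0.0367). The difference of -0.15 ± 0.13 in males did not (adjusted p = 0.358), with a 95% interval from -0.45 to 0.15. The call in females was lost without any 1 of the 65-week female libraries (adjusted p = 0.0831, 0.0717 and 0.0967 without replicates 1, 2 and 3), and the test of the difference between the sexes found none (interaction log2 0.09 ± 0.15, adjusted p = 0.838).

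Aifm2, the oxidoreductase that reduces coenzyme Q at membranes, was a low transcript (chromosome 10, plus strand, 61540677 to 61577788). Its level was 10.2, 10.7 and 9.32 CPM in females of 2 weeks and 5.71, 7.60 and 7.57 CPM in those of 65 weeks. In males the levels were 9.31, 8.07 and 9.33 CPM at 2 weeks and 7.72, 6.96 and 6.26 CPM at 65 weeks. Groups did not overlap in either sex in CPM by library totals. On the TMM scale of the test neither difference was called, with a log2 fold change of -0.39 ± 0.16 in females (adjusted p = 0.0584) and -0.23 ± 0.17 in males (adjusted p = 0.279). In females the alternatives gave adjusted p from 0.0203 to 0.127, and DESeq2 was among those that called it (adjusted p = 0.035). Its exons overlap those of Macroh2a2 on the opposite strand over 12% of their length. Overlaps with exons on the opposite strand were also found for Gpx4 (13.2%, Gm65896), Alox5 (10.9%, Gm67658) and Alox12 (7.21%, ENSMUSG00000134819). Smaller ones were found for Por (3.01%, Gm16061) and Acsl4 (1.68%, Gm61820).

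Acsl4, on the X chromosome (minus strand, 141100840 to 141173789), activates arachidonic and adrenic acid for insertion into phospholipids. Levels were 42.3, 38.5 and 41.6 CPM in 2-week females and 57.1, 58.8 and 55.2 CPM in 65-week females. In males they were 46.0, 48.0 and 38.7 CPM at 2 weeks and 57.1, 54.0 and 49.0 CPM at 65 weeks. The female groups were clearly apart, while the male groups nearly touched. Acsl4 rose in both sexes, by a log2 fold change of 0.62 ± 0.08 in females (1.53-fold, adjusted p = 0.000347) and 0.39 ± 0.13 in males (1.31-fold, adjusted p = 0.0339). As for Slc3a2, the call in males was lost without any 1 of 5 libraries, at adjusted p = 0.0777, 0.0539 and 0.13 without 2-week replicates 1, 2 and 3 and 0.113 and 0.0695 without 65-week replicates 1 and 2.

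Lpcat3 transfers polyunsaturated fatty acids to lysophospholipids (chromosome 6, plus strand, 124639765 to 124684440). It was measured at 157, 128 and 162 CPM in 2-week females and 119, 116 and 114 CPM in 65-week females. In males the levels were 128, 146 and 136 CPM at 2 weeks and 118, 117 and 90.3 CPM at 65 weeks. The libraries of the 2 ages did not overlap in either sex in CPM by library totals. On the TMM scale the log2 fold changes of -0.23 ± 0.11 in females (adjusted p = 0.104) and -0.21 ± 0.14 in males (adjusted p = 0.236) did not pass the test. Lpcat3 was called lower in females by DESeq2 (adjusted p = 0.0362), by edgeR with library totals (adjusted p = 0.0133) and by edgeR without 2-week female replicate 2, the lowest of its group (log2 -0.38, adjusted p = 0.00391). Its value is uncertain, since 53.8% of its merged exons lie opposite those of Emg1, which was counted as well.

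Por, the reductase that passes electrons to microsomal cytochrome P450 enzymes, lies on chromosome 5 (plus strand, 135698887 to 135764182). It was measured at 96.0, 97.4 and 80.5 CPM in 2-week females and 118, 125 and 161 CPM in 65-week females. In males the levels were 125, 112 and 84.2 CPM at 2 weeks and 180, 162 and 166 CPM at 65 weeks. Por rose with age in each sex, with no overlap, by a log2 fold change of 0.70 ± 0.13 in females (1.62-fold, adjusted p = 0.00205) and 0.78 ± 0.16 in males (1.72-fold, adjusted p = 0.00401).

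The lipoxygenases add oxygen to polyunsaturated fatty acids. Alox5 begins the synthesis of leukotrienes and is known from neutrophils and other myeloid cells, Alox12 is the lipoxygenase of platelets, and Alox15 is known from eosinophils and some macrophages. Their age differences took 3 different forms.

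Alox5 (chromosome 6, minus strand, 116387032 to 116438139) was measured at 40.2, 34.2 and 35.3 CPM in females of 2 weeks and 29.4, 30.0 and 30.1 CPM in males. At 65 weeks it was 57.8, 75.5 and 78.6 CPM in females and 114, 112 and 95.6 CPM in males. The 4 groups did not overlap, with 2-week males lowest and 65-week males highest. The log2 fold change with age was 1.08 ± 0.13 in females (2.12-fold, adjusted p = 0.000229) and 1.97 ± 0.12 in males (3.92-fold, adjusted p = 9.58e-06). The 16 neutrophil markers summed to 7065 to 8275 CPM in females and 5913 to 6392 CPM in males of 2 weeks, and to 13683 to 18415 CPM in females and 20350 to 29775 CPM in males of 65 weeks, in the same order as Alox5. Per 100 CPM of these markers, Alox5 was 0.471 to 0.497 CPM at 2 weeks and 0.384 to 0.473 CPM at 65 weeks. The ratio to these markers was thus level or lower at 65 weeks, although Alox5 itself was higher.

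Alox12 (chromosome 11, minus strand, 70132283 to 70146221) had the largest age difference of the members. It was measured at 166, 185 and 204 CPM in females of 2 weeks and 279, 253 and 167 CPM in males. At 65 weeks only 12.3, 19.98 and 20.5 CPM were left in females and 16.8, 36.2 and 9.29 CPM in males. Every 2-week library was above every 65-week library, and the 65-week males varied most, the highest being 3.89 times the lowest. The log2 fold change was -3.26 ± 0.20 in females (0.105-fold, adjusted p = 7.8e-06) and -3.36 ± 0.49 in males (0.0974-fold, adjusted p = 0.000835). The megakaryocyte and platelet markers fell as well, with a median log2 fold change of -2.96 in females and -3.34 in males over 10 of 10 genes. Alox12 per 100 CPM of these markers was 8.28 to 9.12 CPM in the 2-week libraries, 5.59 to 6.04 CPM in 65-week females and 6.41 to 9.32 CPM in 65-week males.

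Alox15 lies 88748 bases from Alox12, at higher coordinates and on the same strand (chromosome 11, 70234970 to 70242858). It was measured at 69.8, 73.7 and 72.2 CPM in females of 2 weeks and 40.3, 40.9 and 73.0 CPM in males. At 65 weeks it was 42.0, 74.8 and 36.3 CPM in females and 39.1, 41.6 and 46.7 CPM in males. The 12 values fell into 2 levels that crossed the groups: the 2-week females, 2-week male replicate 3 and 65-week female replicate 2 were at 69.8 to 74.8 CPM and the other libraries at 36.3 to 46.7 CPM. Neither age difference was called, with a log2 fold change of -0.36 ± 0.24 in females (adjusted p = 0.241) and -0.16 ± 0.22 in males (adjusted p = 0.572). Both depended on 1 library, since Alox15 was called lower in females without 65-week replicate 2 (log2 -0.75, adjusted p = 0.000828), and in males the sign turned without 2-week replicate 3 (log2 0.16, adjusted p = 0.286).

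Transcripts of eosinophil granule proteins were set beside Alox15, chosen after their values were seen. Prg2, the eosinophil major basic protein, was measured at 1269, 1186 and 1280 CPM in females and 791, 807 and 1345 CPM in males of 2 weeks. At 65 weeks it was 635, 1132 and 507 CPM in females and 762, 1012 and 861 CPM in males. The 5 libraries of high Alox15 were also the 5 with the most Prg2. Epx, the eosinophil peroxidase, did not divide the libraries in this way. It was measured at 239, 216 and 225 CPM in females and 142, 148 and 264 CPM in males of 2 weeks, and at 131, 227 and 108 CPM in females and 170, 260 and 200.04 CPM in males of 65 weeks, so that 65-week male replicate 2, with low Alox15, was above 4 of the 5 libraries with high Alox15. Over all 10 eosinophil, basophil and mast cell markers, 3 were called higher at 65 weeks and 0 lower in each sex, with a median log2 fold change of 0.59 in females and 0.52 in males, whereas the estimates for Alox15 were below 0. Per 100 CPM of the 10 eosinophil, basophil and mast cell markers, Alox15 was 3.69 to 4.89 CPM at 2 weeks and 2.95 to 4.92 CPM at 65 weeks. Prg2 was the largest of these markers in every library, so this ratio largely repeats the comparison with Prg2. The level of Alox15 differed by up to 2.06 times within a group, that of 65-week females.

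**Figure D2:**
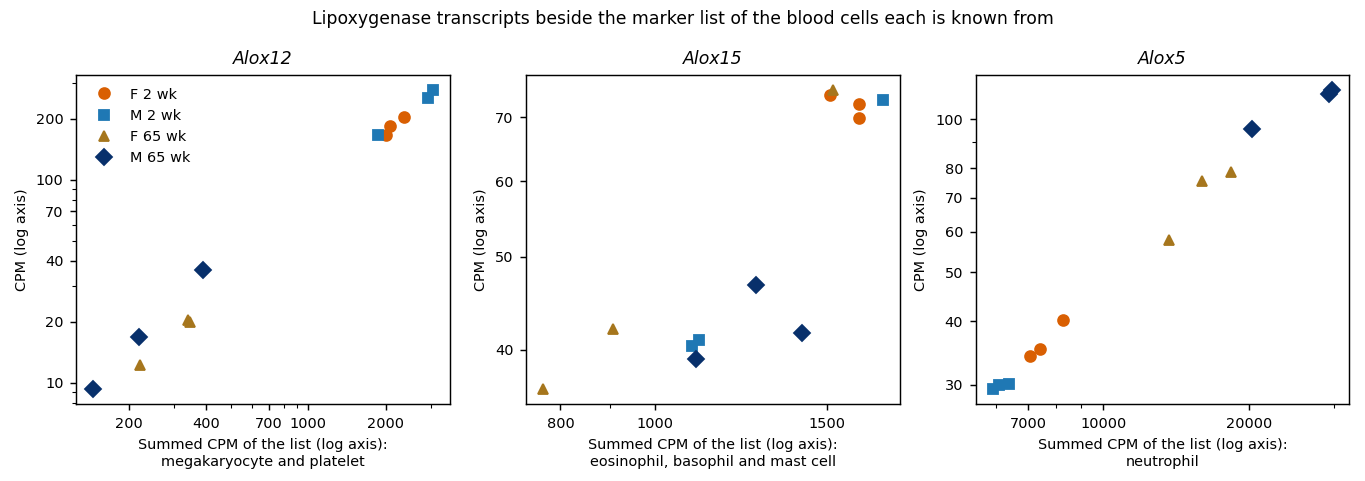
CPM of Alox12, Alox15 and Alox5 (vertical log axes) against the summed CPM of a marker list of the blood cells each gene is known from (horizontal log axes), 1 point per library, with colour and shape for sex (F, M) and age. Alox12 and its 10 markers are both lower in every 65-week library, Alox5 and its 16 markers are both higher, and the 5 libraries of high Alox15 are at the right of their panel. Prg2 is the largest of the markers set beside Alox15 in every library.

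**Figure D3:**
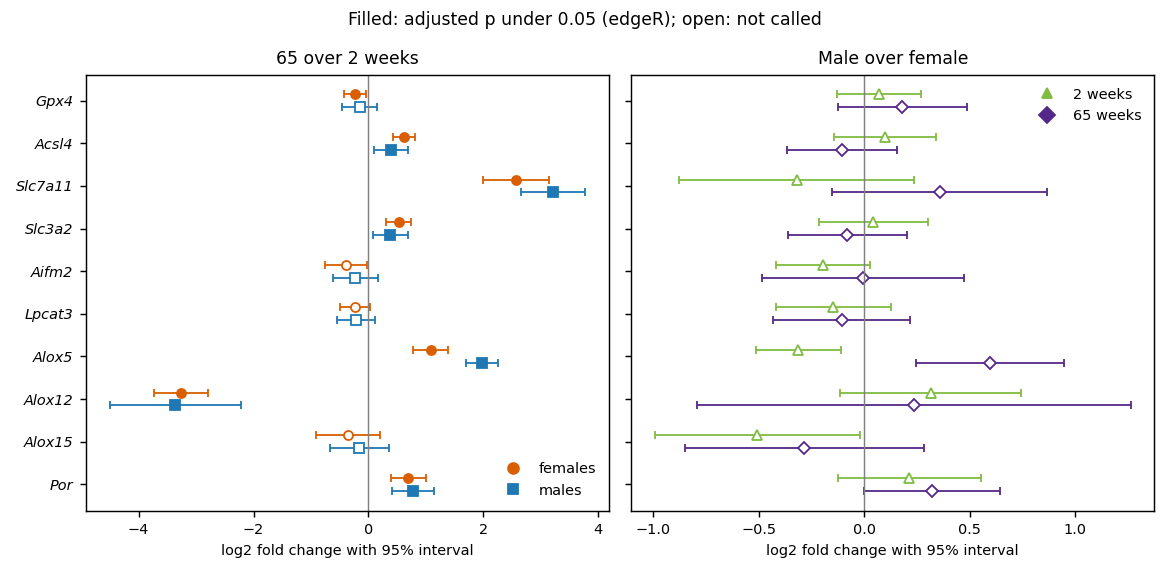
Log2 fold changes of the 10 members with 95% intervals (horizontal axes), 65 over 2 weeks in each sex on the left and male over female at each age on the right, from edgeR fits of 6 libraries each. Filled symbols mark an adjusted p under 0.05. Filled symbols are seen for age only, with Slc7a11 farthest to the right and Alox12 farthest to the left.

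None of the 10 members was called between the sexes. At 2 weeks 0.0332% of all genes were called (5 of 15081). An unadjusted p under 0.05 was found for 2 of 10 members and for 17.8% of all genes. Alox5 was lower in males, with a log2 fold change of -0.31 ± 0.09 (adjusted p = 0.213), and was the 1 member whose libraries did not overlap, against 21.7% of all genes. Alox15 differed by -0.51 ± 0.21 (adjusted p = 0.274) and was called without 2-week male replicate 3 (log2 -0.84, adjusted p = 0.0389). DESeq2 called none of the members at 2 weeks.

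At 65 weeks 0.0420% of all genes were called between the sexes (6 of 14287). An unadjusted p under 0.05 was found for 2 of 10 members and 10.4% of all genes. The libraries of Alox5 and Por did not overlap, both with higher values in males, against 15.5% of all genes. Alox5 differed by 0.60 ± 0.15 on the log2 scale (adjusted p = 0.222) and Por by 0.32 ± 0.14 (adjusted p = 0.482). Of the members DESeq2 called Alox5 alone (adjusted p = 0.0251), as did the edgeR fit without 65-week male replicate 3 (log2 0.70, adjusted p = 0.0266). Both fits also called far more of all genes than the main fit did, 830 in the edgeR fit without that library. All 16 neutrophil markers had higher estimates in 65-week males than in 65-week females (median log2 0.76), whereas at 2 weeks 1 of 16 did (median -0.56). These signs were those of Alox5, but 0 of the 16 markers were called between the sexes at either age. Other lists leaned to 1 side as well. At 2 weeks estimates were higher in males for 20 of 20 endothelial, 10 of 10 megakaryocyte and platelet and 8 of 8 adipocyte and stromal markers. They were higher for 0 of 12 B cell and 0 of 11 erythroid markers at 2 weeks, and for 0 of 12 B cell markers at 65 weeks. Whether the neutrophil markers bear on the Alox5 difference was not tested. For the members of the defence, the 95% intervals at 65 weeks were -0.13 to 0.49 for Gpx4, -0.36 to 0.20 for Slc3a2, -0.15 to 0.87 for Slc7a11 and -0.48 to 0.47 for Aifm2, and differences within these bounds remain possible.

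Whether the age difference of a member differed between males and females was tested as an interaction on all 12 libraries. No member was called, and 0.00635% of all genes were (1 of 15747). With an unadjusted p under 0.05 there were 1 of 10 members and 11.9% of all genes. That member was Alox5, whose log2 fold change with age was larger in males by 0.89 ± 0.18 (adjusted p = 0.119). DESeq2 called this difference (adjusted p = 0.00223), and so did edgeR without 65-week male replicate 3 (log2 1.01, adjusted p = 0.0146). Both fits also called far more of all genes than the main fit did, 750 in the edgeR fit without that library. Slc7a11 had the next largest estimate, 0.66 ± 0.35, with an interval from -0.10 to 1.41 (adjusted p = 0.48).

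Levels of different genes were compared per kb of merged exon length. Gpx4 was highest in all 4 groups, at 210 ± 13.2 CPM per kb in 2-week females, 223 ± 5.54 in 2-week males, 162 ± 3.57 in 65-week females and 185 ± 21.9 in 65-week males. Slc3a2 was at 51.1 ± 3.49, 53.3 ± 5.71, 67.2 ± 4.06 and 63.9 ± 5.42 CPM per kb in the same order of groups. Its mean took rank 2 except in 2-week males, where Alox12 was at rank 2 and Slc3a2 at rank 3. At 2 weeks Alox12 was level with Slc3a2, at 44.5 ± 4.52 CPM per kb in females and 56.0 ± 14.0 in males, and the libraries of these 2 genes overlapped. At 65 weeks Alox12 took rank 8 of 10, at 4.23 ± 1.10 and 4.99 ± 3.34 CPM per kb, and Por rank 3 at 26.3 ± 4.46 and 33.2 ± 1.81. Slc7a11 was lowest at 2 weeks, at 0.131 ± 0.0339 CPM per kb in females and 0.106 ± 0.0207 in males, below Aifm2 at 1.01 ± 0.0697 and 0.890 ± 0.0724. At 65 weeks Slc7a11 was at 0.707 ± 0.160 CPM per kb in females, where it overlapped Aifm2 at 0.696 ± 0.108, and at 0.910 ± 0.173 in males, where it lay above Aifm2 at 0.698 ± 0.0731. In the middle of the order, Por overlapped Lpcat3 in 2-week females and Alox15 in 2-week males and 65-week females, Alox15 overlapped Lpcat3 in 2-week males and Alox5 in 65-week females, Alox5 overlapped Lpcat3 in 65-week females and Acsl4 in 2-week males, and Acsl4 overlapped Alox12 in 65-week males. All other neighbours in the order were apart. With the length of the canonical transcript instead, an alternative chosen after seeing the data, Lpcat3 moved up to rank 3 or 4 and Slc7a11 was below Aifm2 in all 4 groups.

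The gene most like each member was found by Pearson's r of log2 CPM over the 12 libraries among 14031 genes, as a description. The libraries fall into 2 clusters by age, so genes with a like age difference have a high r. Slc7a11 was most like Clec4d (r = 0.993), a lectin receptor of myeloid cells, and 1477 genes had r above 0.9 with it. Alox5 was most like Wfdc21 (r = 0.996), with 970 genes above 0.9, and Alox12 was most like Lgalsl (r = 0.998), with 1903. For Alox12 and Alox5 a gene of lower rank is also named, chosen after it was seen. Gp1bb, part of the platelet receptor for von Willebrand factor, was at rank 2 for Alox12 (r = 0.996). S100a9, a neutrophil calgranulin, was at rank 3 for Alox5 (r = 0.996). Acsl4 and Slc3a2 were each other's closest gene (r = 0.981), and Por was closest to Ehd1 (r = 0.979). Fewer genes were like the members with small or unsteady differences: 14 had r above 0.9 with Gpx4 (Fundc2 first, 0.944), 9 with Lpcat3 (Adam33 first, 0.955), 1 with Aifm2 (Pik3r6, 0.917) and 3 with Alox15. These 3 were Inpp5j (r = 0.947) and the eosinophil ribonuclease genes Ear1 (0.906) and Ear6 (0.9005).

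The members were then set beside 96 further genes of the pathway in 9 lists. In females 28 of 89 tested were higher at 65 weeks, 24 were lower and 37 were not called, with a median log2 fold change of 0.10. In males 29 of 90 were higher, 19 lower and 42 not called, with a median of 0.04. Of all genes tested, 30.2% were higher and 29.5% lower in females and 27.0% and 28.5% in males, and no excess is read from the counts of the lists. None was called between the sexes at 2 weeks (90 tested), at 65 weeks (89 tested) or in the interaction (92 tested). One gene per list is named below by a fixed rule, and further genes were chosen after their values were seen, to show both directions. Pairs of log2 fold changes are females then males.

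Around the cystine transporter and Gpx4, 6 of 12 genes of glutathione synthesis and use were higher and 4 lower in females, and 6 and 4 of 13 in males. Gclm, the modifier subunit of glutamate-cysteine ligase, rose by 0.75 and 0.87 and Gsr, which reduces oxidised glutathione, by 1.06 and 1.51. Gss, which carries out the last step of glutathione synthesis, was called lower in females (-0.57, adjusted p = 0.00144) and was not called in males (-0.33, adjusted p = 0.0975). Gpx1, the cytosolic glutathione peroxidase, rose by 0.85 and 0.80, in the direction opposite to that of Gpx4 in females. Gpx7, a peroxidase of the endoplasmic reticulum, was the gene named by the rule and fell (-3.62 and -3.88, adjusted p = 1.16e-05 and 0.000164). Its level was 19.1 ± 5.68 CPM in 2-week and 1.40 ± 0.187 CPM in 65-week females, and 22.8 ± 4.34 and 1.42 ± 0.815 CPM in males (SD, n = 3). Of 8 genes for making selenoproteins such as Gpx4, 1 was higher and 1 lower in females, and 4 and 1 in males. Sephs2, which makes the selenium donor, rose by 0.50 and 0.90 (adjusted p = 0.00769 and 0.00107).

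Of 15 genes of coenzyme Q synthesis and other radical trapping, the route of Aifm2, 2 were higher and 5 lower in females and 1 and 3 in males, with a median log2 fold change of -0.27 and -0.19. Gch1, which starts tetrahydrobiopterin synthesis, rose by 0.74 and 1.00 (adjusted p = 0.0112 and 0.00591), and Dhodh, which reduces coenzyme Q in mitochondria, fell (-0.54 and -0.52, adjusted p = 0.00676 and 0.00741). Among 7 tested amino acid transport genes, 2 were higher and 1 lower in females and 1 and 1 in males. Slc7a6, another light chain that pairs with Slc3a2, fell (-1.03 and -1.66, adjusted p = 0.000555 and 9.81e-05), opposite to Slc7a11.

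Of 9 tested genes of fatty acid activation, desaturation and elongation, 2 were higher and 4 lower in females and 2 and 2 in males. Scd1, which makes monounsaturated fatty acids, rose by 1.49 and 1.17 (adjusted p = 5.78e-05 and 0.04), although its libraries overlapped in males. Fads2, which desaturates polyunsaturated fatty acids, fell (-0.84 and -0.90, adjusted p = 0.000389 and 0.0133). Of 12 genes of phospholipid remodelling, 5 were higher and 3 lower in females and 6 and 2 in males. Lpcat2, an acyltransferase of inflammatory cells, rose by 1.54 and 1.63 (adjusted p = 5.74e-05 and 5.42e-05).

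Of 5 tested genes of the lipoxygenase and leukotriene list, 2 were higher and 1 lower in each sex. Alox5ap, which presents arachidonic acid to Alox5, rose by 1.06 and 1.43 (adjusted p = 0.000534 and 7.34e-05). Its level was 135 ± 18.9 CPM in the 2-week and 257 ± 43.4 CPM in the 65-week females, and 107 ± 16.1 and 265 ± 12.8 CPM in males. Of 7 tested oxidoreductases beside Por, 2 were higher and 3 lower in each sex. Cybb, the catalytic subunit of the phagocyte NADPH oxidase, rose by 2.07 and 2.01 (adjusted p = 1.65e-05 and 3.37e-06). It stood at 280 ± 35.9 CPM in the younger and 1072 ± 176 CPM in the older females, and at 236 ± 10.6 and 877 ± 50.4 CPM in males. Nox4, the NADPH oxidase of endothelial and mesenchymal cells, fell (-6.01 and -4.19, adjusted p = 0.000235 and 0.0045). It was a low transcript, at an average log2 CPM of -0.03 and 0.25 in these fits. Between the sexes at 65 weeks it did not pass the filter on low counts, so the size of its fall is uncertain. Of 14 regulators, 6 were higher and 2 lower in females and 5 and 2 in males. Bach1, a repressor of antioxidant genes, rose by 1.03 and 0.70 (adjusted p = 0.000117 and 0.000321), and Nfe2l2, their activator, by 0.57 and 0.42 (adjusted p = 0.000526 and 0.00354). Atf4, whose kind of site stands in the Slc7a11 sequence above, was not called (log2 0.18 and 0.15, adjusted p = 0.244 and 0.424). These are RNA levels, and neither Atf4 protein nor its part in the level of Slc7a11 was tested.

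**Figure D4:**
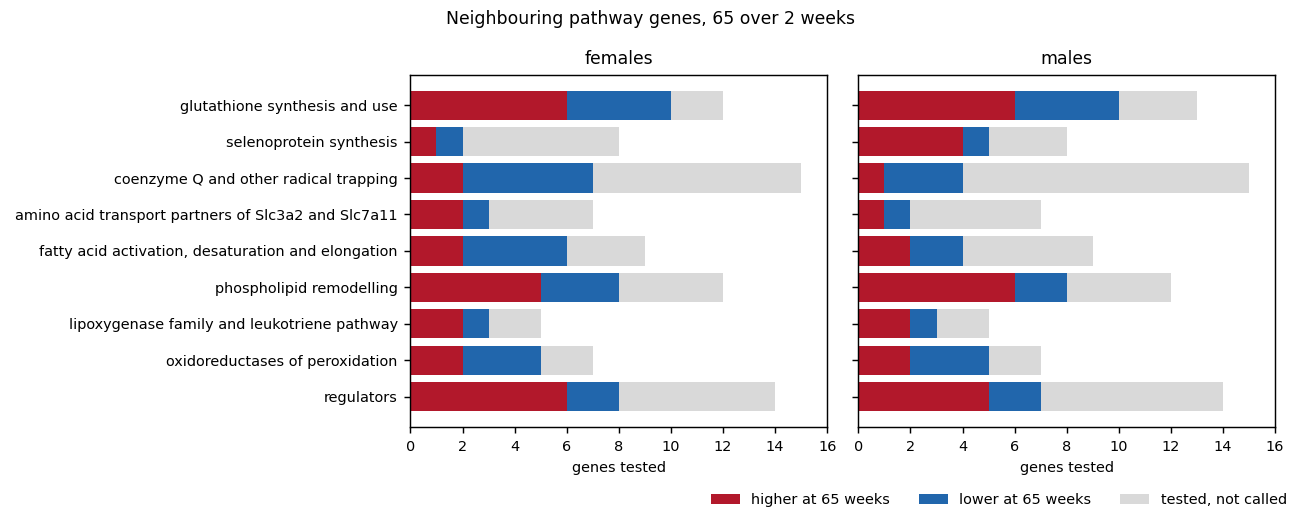
Number of genes tested in each of the 9 pathway lists (horizontal axes), split into those called higher at 65 weeks, called lower and not called by edgeR at an adjusted p of 0.05, in females on the left and males on the right. Calls in both directions are seen in every list in both sexes.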

How the data were processed

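RNA-seq of BECs was analysed from 12 libraries, 3 for each sex and age, grouped by the sex and age in their labels. The authors deposited counts per gene without normalisation. The methods of the study describe alignment to GRCm39 with STAR and counting with featureCounts, whereas the submitters' processing notes name TopHat2, HTSeq and mm9, which was not resolved. Strand, annotation release and the handling of reads mapping to several places are not given in the sources used here. The kit was for total RNA while the label names polyA RNA. RNA of the best quality in each set was chosen for libraries, and the methods describe endomucin beads where the label describes a sort.

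Symbols, coordinates and exon lengths came from GENCODE M39 by Ensembl ID, with 31052 of 37620 IDs found. No column was left out (0 other columns). Tests used edgeR 4.0.16 in R 4.3.3 (quasi-likelihood F test after TMM, low genes removed by filterByExpr at a count of 10, p-values adjusted by Benjamini-Hochberg, threshold 0.05), on 6 libraries per comparison and all 12 for the interaction. The SE was taken from the F statistic. Scripts were tested on simulated data. Depth sets the precision, and a transcript near 2 CPM, such as Slc7a11 at 2 weeks, rests on under 100 reads.

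The members, lists and alternatives were chosen with earlier results of these data known. Named pathway genes were, per list, the called gene with the largest change in females at an average log2 CPM of at least 3 and called in the same direction in males. Alternatives were DESeq2 1.42.0, other scalings and filters, 1 model of 12 libraries, a replicate block, thinning, a threshold of 0.01 and leaving out each library.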

Additional observations from a re-analysis of the deposited data

How the results depend on the processing

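Slc7a11, Alox5, Alox12 and Por were called for age, in both sexes, under 14 of 14 alternatives each, and Acsl4 and Slc3a2 in 14 of 14 in females and 7 of 14 in males. The number of members called for age was 6 to 9 in females and 4 to 6 in males under the other settings, and 6 to 8 and 4 to 6 with 1 library left out. Between the sexes it was 0 to 1 with 1 library left out at either age and in the interaction, and 1 with DESeq2 at 65 weeks and in the interaction and with all 12 libraries in 1 model at 65 weeks (Alox5 in each case). Over all genes, DESeq2 called 412 between the sexes at 2 weeks, 358 at 65 weeks and 362 in the interaction. The model of all 12 libraries called 8 at 2 weeks and 254 at 65 weeks. Library totals gave 10 and no filter 105 at 65 weeks, and in the interaction no filter gave 7 and thinning and the threshold of 0.01 gave 0. With 1 library left out, calls over all genes were 7434 to 8757 and 6450 to 9564 for age in females and males, 5 to 11 and 5 to 830 for sex at 2 and 65 weeks, and 0 to 750 in the interaction, where 750 and 830 were reached without 65-week male replicate 3. Gpx4 in females was not called with all 12 libraries in 1 model (adjusted p = 0.0591). Acsl4 and Slc3a2 in males were not called with library totals (adjusted p = 0.0827 and 0.0982) or no filter (0.0655 and 0.0746). Scaling by library totals moved the median log2 fold change for age by -0.14 in females and -0.12 in males, and the share of calls that were higher from 50.6% to 40.2% and from 48.7% to 40.4%. The causes were not tested.

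Some values that were not called changed sign. Aifm2 between the sexes at 65 weeks was 0.00367 with library totals and 0.00719 in 1 model of 12 libraries. With 1 library left out, log2 values for sex at 2 weeks ran from -0.028 to 0.12 for Slc3a2. Those for sex at 65 weeks ran from -0.13 to 0.095 for Aifm2, -0.48 to 0.10 for Alox15, -0.43 to 0.60 for Alox12, -0.13 to 0.013 for Slc3a2, -0.18 to 0.032 for Lpcat3. Those in the interaction ran from -0.076 to 0.18 for Lpcat3, -0.78 to 0.28 for Alox12, -0.064 to 0.23 for Por, -0.0019 to 0.58 for Alox15, -0.023 to 0.23 for Gpx4, and Alox15 for age in males ran from -0.31 to 0.16.

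Same-numbered replicates correlated between -0.36 and 0.14 in their deviations, and the labels tie them to nothing shared, so the numbers were not taken as pairs. In every comparison at least 2 of the 3 such correlations were below 0, so not every library correlated best with its own number. With the number as a replicate block, 6 members were called for age in each sex, 0 in the other comparisons, and over all genes 8269 and 7593 for age in females and males, 5 and 7 for sex at 2 and 65 weeks and 0 in the interaction, and Gpx4 in females was not called (adjusted p = 0.0901).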
